A study of Caenorhabditis elegans with 2 samples.

Results

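The splicing genes described here are the 36 genes of the deposited table, of 46135 in all, whose symbol begins with snr-, rsp-, prp-, rnp-, uaf-, sfa- or sap- followed by a digit. The rule uses names and no measured value. It takes 7 snr genes, 8 rsp genes, 9 prp genes, 8 rnp genes and a group of 4 made up of uaf-1, uaf-2, sfa-1 and sap-49. Their transcripts were measured in whole Caenorhabditis elegans larvae at the L3 stage, in 1 library from animals with the lsm-1(tm3585) allele, outcrossed 3 times to wild type, and in 1 library from wild-type N2 animals. Both groups had been synchronised as L1 larvae and kept for 26 hours at 25 °C, and neither received a further agent. LSM-1 belongs to the Lsm ring of the cytoplasm, a protein ring that helps to remove the cap of messenger RNAs before their decay. With 1 library per genotype there is no replicate error, so every difference below compares these libraries and has no test of the genotype.

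Splicing removes introns from precursor messenger RNA. The work is done by small nuclear ribonucleoproteins (snRNPs), each a small nuclear RNA with its proteins. In most of them the RNA is bound by a ring of Sm proteins, which are relatives of the Lsm proteins. Proteins such as SF1 and U2AF mark the end of an intron first, SR proteins bind exons and recruit the machinery, and the PRP proteins then assemble, activate and rearrange the spliceosome. In C. elegans the same machinery also joins a spliced leader to the start of many transcripts.

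Values are FPKM, fragments scaled by transcript length and by library size, as the authors deposited them. A difference is log2(FPKM + 1) in the mutant minus the same in N2, which understates changes of low genes. A gene was called measured when 1 of the libraries gave it 1 FPKM or more, which held for 14838 genes. Over these genes the median difference was 0.24, or 1.18-fold, and centred differences have this median subtracted. The steps between low FPKM values point to some 8.76 M fragments in the N2 library and 10.7 M in the mutant, and FPKM times length then gives the fragments behind a value. The 95% intervals of ratios below come from those fragments and cover counting error only. The mutated gene itself, lsm-1, stood at 10.2 FPKM in N2 and 5.94 in the mutant, a ratio of 0.581 with a counting interval from 0.323 to 1.08, from about 29 fragments in N2 and 21 in the mutant.

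As a group the splicing genes stood slightly higher in the mutant library, by about as much as other genes at their level. Of the 34 measured members, 30 were above 0 in both libraries, 4 were listed at 0 in N2 alone, and prp-38 and sap-49, both listed at 0 in both libraries, were not measured. The median difference of the 34 was 0.36, or 0.13 after centring. By the size rule, a difference of at least 1 or 2-fold on this scale, 5 members were higher and none was lower in the mutant. The same rule was passed upward by 13.6% of all measured genes and downward by 12.2%, and the 5 members make up 14.7% of the 34. Of the 5, 4 were the genes listed at 0 in N2, and after centring only these 4 passed, against 10.5% of all measured genes. Listed at 0 in N2 alone were 8.16% of measured genes and in the mutant alone 9.05%, where no member stood. In the authors' deposited table none of the 26 members with a usable test was called, against 3.76% of all genes with such a test. For 3 of the 26, listed at 0 in N2, that table gives a log2 fold change of 0.

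Genes of the same level showed a shift of like size. Members were well expressed, with a median of their mean FPKM of 11.9, above 77.2% of measured genes. Among the 5510 genes above 0 in both libraries with a mean FPKM of 5 to 100, a range chosen after the data were seen, the median difference was 0.33, a factor of 1.26. The 30 members above 0 in both libraries had a median 0.01 below that value, and 14 of them lay above it. In those 30, 25 were higher in the mutant than in N2 and 5 were lower, while a difference above 0 was found for 76.9% of the genes of 5 to 100 FPKM and for 64.1% of all measured genes.

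**Figure D1:**
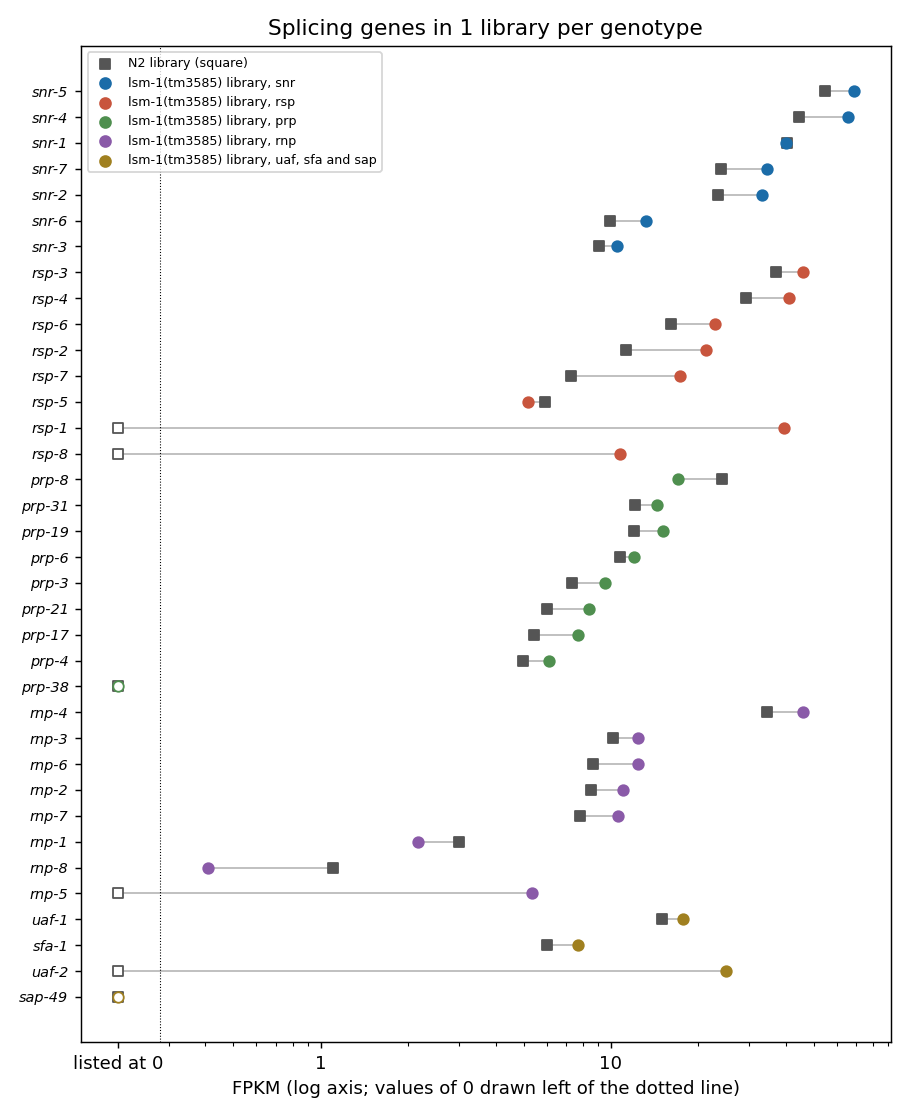
FPKM of each of the 36 splicing genes (log axis), with a grey square for the N2 library and a coloured circle for the lsm-1(tm3585) library, ordered within each class by N2 level; open symbols left of the dotted line are values listed at 0. Most circles lie a short way to the right of their square, prp-8, rsp-5, rnp-1 and rnp-8 to the left, snr-1 on top of it, 4 genes have only their square at 0, and prp-38 and sap-49 have both symbols there.

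The Sm core came first. The snr genes encode the Sm proteins that close into a 7-membered ring on most small nuclear RNAs of the spliceosome. The highest FPKM was that of snr-5 (ZK652.1, chromosome III), which encodes SmF, at 54.7 in N2 and 68.6 in the mutant. The gene snr-4 (C52E4.3, chromosome V), which encodes SmD2, stood at 44.3 FPKM in N2 and 65.4 in the mutant. These were the highest levels of any member in either library.

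The middle of the Sm range held 3 genes. The SmD3 gene snr-1 (Y116A8C.42, chromosome IV) stood at 40.5 FPKM in N2 and 40.07 in the mutant. The SmG gene snr-7 (Y71F9B.4, chromosome I) stood at 23.8 in N2 and 34.5 in the mutant. The SmB gene snr-2 (W08E3.1, chromosome I) stood at 23.4 in N2 and 33.27 in the mutant. Of these, snr-1 alone was not higher in the mutant.

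The remaining pair was several times lower. The SmE gene snr-6 (Y49E10.15, chromosome III) stood at 9.89 FPKM in N2 and 13.3 in the mutant. The SmD1 gene snr-3 (T28D9.10, chromosome II) stood at 9.07 in N2 and 10.5 in the mutant, and was marked as having too few data in the authors' deposited table. So the transcripts of a ring with equal parts spanned a range of FPKM from snr-3 to snr-5 of 6.55-fold in the mutant and 6.03-fold in N2. About 69 fragments in N2 and 106 in the mutant lie behind snr-5, the shortest member at 348 nt. Behind snr-3 lie about 30 in N2 and 42 in the mutant. For such short transcripts FPKM depends on how length was scaled, and its part in this range was not tested. The further FPKM pair of the table comes from the same 2 libraries and is mostly lower by a factor of 1.14 in both. It lists snr-3 at 0 in both libraries.

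Between the libraries the Sm genes differed little. By the size rule none of the 7 was past the limit, nor did the authors' deposited table call any, 6 were higher in the mutant and the median centred difference was 0.15. The ratio of the summed FPKM of the 7 was 1.29. The largest ratio was that of snr-4, at 1.48 (counting interval 1.19 to 1.83), and the smallest that of snr-1, at 0.990 (0.822 to 1.19). The interval of snr-1 lies wholly below the factor of 1.26 seen for genes of this level. Those of the other 6 include that factor, and that of snr-6 runs from 0.711 to 2.53 with about 18 fragments in N2 and 29 in the mutant behind it. In the current annotation snr-1 shares 96 exon bases with Y116A8C.43 on the same strand, a gene that stood at 0.216 FPKM in N2 and 0.531 in the mutant.

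The SR protein genes showed the widest spread of any class. SR proteins carry RNA recognition motifs and a tail rich in arginine and serine, and they promote the recognition of exons. The best expressed was rsp-3 (Y111B2A.18, chromosome III), the worm counterpart of SF2/ASF, at 37.1 FPKM in N2 and 46.1 in the mutant. The SC35 counterpart rsp-4 (EEED8.7, chromosome II) stood at 29.2 in N2 and 41.1 in the mutant. The SRp20 counterpart rsp-6 (C33H5.12, chromosome IV) stood at 16.1 in N2 and 22.8 in the mutant. All 3 lay near the general shift, with ratios from 1.24 to 1.41.

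Another pair, rsp-7 and rsp-2, stood further out. The gene rsp-7 (D2089.1, chromosome II), which encodes an SR-related protein, stood at 7.27 FPKM in N2 and 17.3 in the mutant, from about 91 fragments in N2 and 264 in the mutant. Its ratio of 2.38 had a counting interval from 1.87 to 3.06, and it was the only member above 0 in both libraries to pass the size rule, which 6.51% of measured genes above 0 in both passed upward and 3.86% downward. In the authors' deposited table its q-value of 0.0901 was the lowest of any member and was not a call. After centring its difference was 0.91, short of the size rule. The gene rsp-2 (W02B12.2, chromosome II) stood at 11.3 FPKM in N2 and 21.3 in the mutant, a ratio of 1.89 with a counting interval from 1.46 to 2.47, and its q-value in the authors' deposited table was 0.332. These were the only 2 members whose interval lay wholly above 1.26.

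The SR class also held the member with the largest listed difference. The gene rsp-1 (W02B12.3, chromosome II), which neighbours rsp-2 on the opposite strand, was at 39.4 FPKM in the mutant and listed at 0 in N2. The TRA2 counterpart rsp-8 (C18D11.4, chromosome III) was at 10.7 FPKM in the mutant and listed at 0 in N2. Both were again listed at 0 in N2 in the further pair, with 35.9 and 10.1 FPKM in the mutant. In the authors' deposited table rsp-1 has a usable test and rsp-8 one marked as failed. Body wall muscle genes such as unc-15 and lev-11 are listed at 0 in both libraries, with tests marked as failed. Whether a 0 is an estimate that failed was not tested, and no fold is given. Lastly rsp-5 (T28D9.2, chromosome II) stood at 5.93 FPKM in N2 and 5.19 in the mutant, a ratio of 0.875 with an interval from 0.544 to 1.38, which includes the factor of 1.26.

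Counted together, 3 of the 8 SR genes passed the size rule upward and none downward, against 13.6% and 12.2% of measured genes. Of the 3, 2 passed through a value of 0 in N2, a value that 8.16% of measured genes had in N2 alone. The median centred difference of the 8 was 0.43, and 0.24 without the genes at 0 in any FPKM column. Among the 6 above 0 in both libraries the ratio of the summed FPKM was 1.44, the highest of the 5 classes, with rsp-7 and rsp-2 as its 2 highest ratios.

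**Figure D2:**
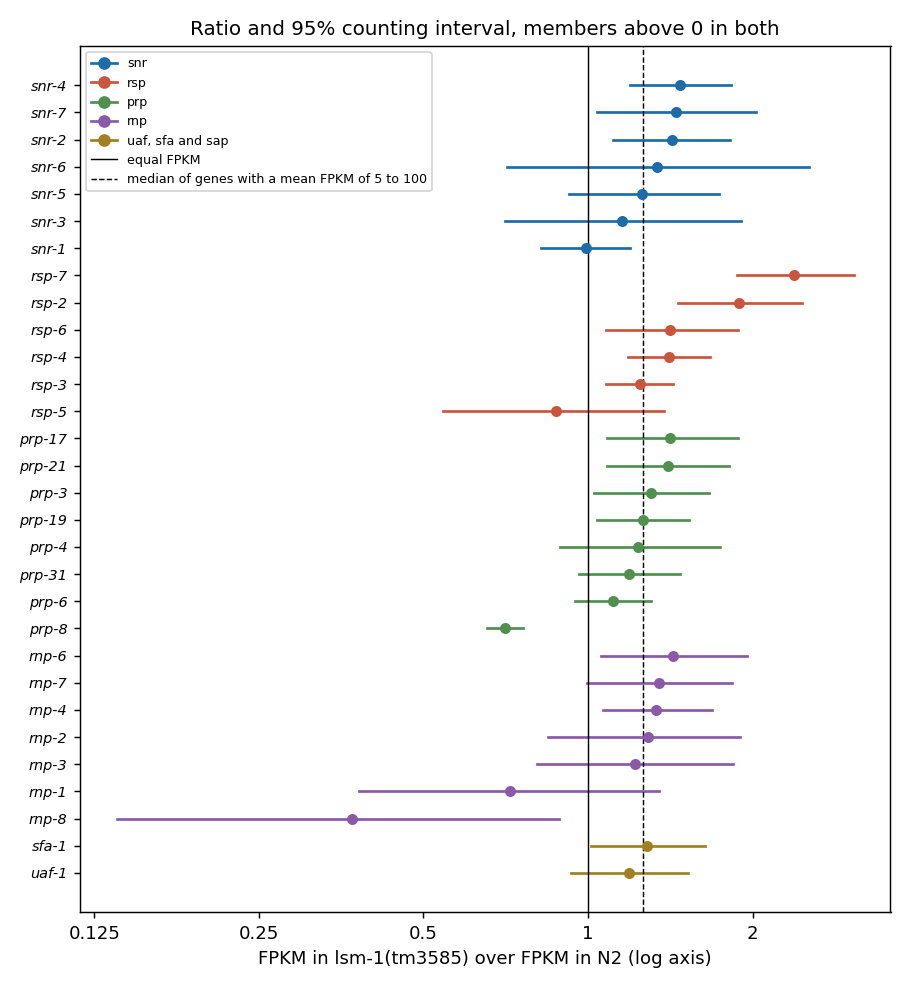
Ratio of FPKM in lsm-1(tm3585) to FPKM in N2 (log axis) for the 30 splicing genes above 0 in both libraries, with bars for the 95% counting interval, a solid line at equal FPKM and a dashed line at 1.26, the median of genes with a mean FPKM of 5 to 100. The bars of rsp-7 and rsp-2 lie wholly to the right of the dashed line, those of prp-8, snr-1 and rnp-8 wholly to the left, and the other 25 cross it.

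Genes for the first recognition of the intron end were next. The large U2AF subunit, which binds the pyrimidine tract, is encoded by uaf-1 (Y92C3B.2, chromosome III), at 14.97 FPKM in N2 and 17.8 in the mutant. The branch point binding protein SF1 is encoded by sfa-1 (Y116A8C.32, chromosome IV), at 6.01 in N2 and 7.72 in the mutant. Their ratios of 1.19 and 1.28 lay near the general shift. The small U2AF subunit, which reads the terminal AG of the intron, is encoded by uaf-2 (Y116A8C.35, chromosome IV), at 24.8 FPKM in the mutant and listed at 0 in N2. With that 0 the balance of the U2AF subunits in N2 cannot be read from these values. The gene sap-49 (C08B11.5, chromosome II), whose product is the counterpart of the SF3b subunit SF3B4, was listed at 0 in all 4 FPKM columns.

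The prp genes are named after yeast mutants that fail in precursor RNA processing. The gene that stood apart was prp-8 (C50C3.6, chromosome III), which encodes the large U5 snRNP protein at the heart of the spliceosome. Its transcript stood at 24.1 FPKM in N2 and 17.01 in the mutant, the one prp gene lower in the mutant. About 1522 fragments in N2 and 1306 in the mutant lie behind these values, the most of any member, and the ratio of 0.706 had a counting interval from 0.655 to 0.760. The centred difference was -0.72, within the size rule, and the authors' deposited table does not call it (q = 0.595). The further pair, from the same libraries and so no separate support, stood at 21.2 FPKM in N2 and 14.8 in the mutant.

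The other measured prp genes, all higher in the mutant, lay close together. The genes prp-3, prp-4, prp-6 and prp-31 encode proteins of the U4/U6 and tri-snRNP particles. The highest of these was prp-31, at 12.1 FPKM in N2 and 14.4 in the mutant. The others stood between 6.13 FPKM (prp-4) and 11.97 (prp-6) in the mutant and between 4.96 and 10.8 in N2. Ratios over these 4 genes ran from 1.11 for prp-6 to 1.30 for prp-3.

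The remaining prp genes act at other steps. The SF3a subunit gene prp-21 (W07E6.4), whose product joins the U2 snRNP, stood at 6.001 FPKM in N2 and 8.42 in the mutant. The ubiquitin ligase gene prp-19 (T10F2.4), which activates the spliceosome, stood at 11.97 in N2 and 15.1 in the mutant. The second-step factor gene prp-17 (F49D11.1) stood at 5.43 in N2 and 7.68 in the mutant. Here prp-17 and prp-21 had the highest centred differences of the class, 0.20 and 0.19, while prp-8 and prp-6 had the lowest, -0.72 and -0.09. None of the 8 measured prp genes passed the size rule. Their median centred difference was 0.05 and the ratio of their summed FPKM was 1.09, the lowest of the classes. Of the 82.7 FPKM summed in N2, 24.1 came from prp-8, the one prp gene lower in the mutant.

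The rnp genes share a name for RNA recognition motifs and not a single function. Core snRNP proteins are encoded by rnp-7 (U1-70K), rnp-2 and rnp-3 (RNA recognition motif proteins of the U1 and U2 snRNPs). The gene rnp-7 (K04G7.10) stood at 7.84 FPKM in N2 and 10.6 in the mutant. Its ratio of 1.35 lay near the general shift. The pair rnp-2 and rnp-3 are next to each other on chromosome IV and on the same strand, and stood at nearly the same level. There rnp-2 was at 8.54 FPKM in N2 and 10.98 in the mutant, and rnp-3 at 10.2 in N2 and 12.4 in the mutant. The ratio of rnp-3 to rnp-2 was 1.13 in the mutant and 1.19 in N2.

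Further rnp genes act after or beside the core. The exon junction protein Y14, which marks the joined exons, is encoded by rnp-4 (R07E5.14), at 34.5 FPKM in N2 and 46.02 in the mutant. The PUF60 counterpart rnp-6 (Y47G6A.20) stood at 8.69 in N2 and 12.4 in the mutant. The RNPS1 counterpart rnp-5 (K02F3.11) was at 5.36 FPKM in the mutant and listed at 0 in N2, again in both pairs. Among rnp genes above 0 in both libraries rnp-6 had the highest centred difference, 0.23, followed by rnp-4 with 0.17.

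The low end of the rnp class was formed by its rarest genes. The gene rnp-8 (R119.7), whose product partners the poly(A) polymerase GLD-2 in the germ line and is not a core splicing factor, stood at 1.10 FPKM in N2 and 0.409 in the mutant. The gene rnp-1 (ZK863.7) stood at 2.99 in N2 and 2.15 in the mutant. Only about 18 fragments in N2 and 8 in the mutant lie behind rnp-8, and 24 in N2 and 21 in the mutant behind rnp-1, so their ratios of 0.371 (counting interval 0.138 to 0.883) and 0.721 (0.381 to 1.35) are poorly fixed. In the annotation rnp-8 also shares 310 exon bases with R119.2 on the other strand, which stood at 6.95 FPKM in N2 and 4.66 in the mutant. The class median was 0.12 after centring.

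Beside the median, the spread of the members was measured against genes of like level. Of the 30 members above 0 in both libraries, 28 lie in the range of 5 to 100 FPKM. Their differences had an interquartile range of 0.22, from 0.25 to 0.47, where the 5510 genes of that range had 0.58, from 0.03 to 0.61. More than 0.5 from the median of the range were 3 of the 28, or 10.7%, and 28.3% of the range. The 19 spliceosome genes outside the rule in that range had an interquartile range of 0.39, with 1 gene (5.26%) past that distance. The SD of the differences was 0.30 for them, 0.29 for the members and 0.63 for the range. The counting interval of the ratio lay wholly above the median ratio of the range for 2 of the 28 and wholly below it for 2, against 19.6% and 16.7% of the range. Members had somewhat more fragments, with medians of 175.5 in the mutant and 95.5 in N2 against 126 and 80.0, and the part of depth in the narrower spread was not tested. Over the 30 genes the order of levels was nearly the same in both libraries, with a Spearman rho of 0.946, a description across genes that share gene lengths and library preparation.

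**Figure D3:**
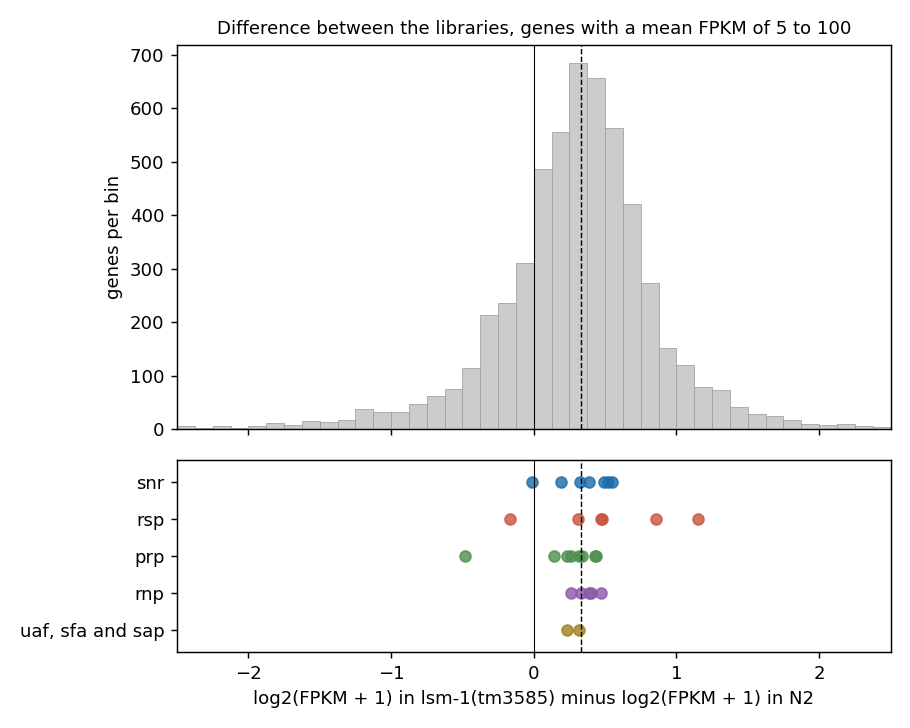
Upper panel, number of genes per bin of the difference in log2(FPKM + 1), lsm-1(tm3585) minus N2, for the 5510 genes with a mean FPKM of 5 to 100 (37 genes lie outside the axis). Lower panel, the 28 splicing genes of that range by class on the same axis, with a dashed line at the median of 0.33; most points lie close to the line, with rsp-7 and rsp-2 to its right and prp-8 and rsp-5 to its left.

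Other genes of the splicing pathway, from lists drawn up by name, were compared with the members. Of 33 listed spliceosome genes outside the rule, 31 were measured, and none was called in the authors' deposited table. Of the 31, 3 passed the size rule upward and 0 downward, against 13.6% and 12.2% of measured genes. The median centred difference of the 31 was 0.08, beside 0.13 for the members. The gene rsr-2, which encodes a protein related to the SR proteins, stood at 5.11 FPKM in N2 and 12.5 in the mutant. The genes syf-1 (13.5 FPKM in the mutant) and cdc-5L (18.3) were listed at 0 in N2. At the low end syf-2 stood at 2.60 in N2 and 2.22 in the mutant. For the partners of PRP-8 in the U5 snRNP the values were 15.3 in the mutant and 9.61 in N2 for eftu-2 and 5.02 and 4.39 for snrp-200. The centred differences were 0.39 for eftu-2 and -0.08 for snrp-200, and the counting interval of the ratio of snrp-200, from 0.969 to 1.35, includes 1. These partners were chosen after their values were seen.

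Genes that serve the snRNPs and SR proteins differed in direction, in part through values of 0. The SR protein kinase gene spk-1 stood at 6.55 FPKM in N2 and was listed at 0 in the mutant, while the further pair lists it at 0 throughout. The arginine methyltransferase gene prmt-5, whose product modifies Sm proteins, was at 8.21 in the mutant and listed at 0 in N2, again in both pairs. The authors' deposited table called prmt-5 (q = 5.1e-08), a call that rests on that 0. The gene smn-1, which acts in the loading of Sm rings, stood at 5.54 in N2 and 10.5 in the mutant (counting interval of the ratio 1.15 to 3.13). Its partner smi-1 stood at 6.84 in N2 and 5.24 in the mutant. The counting interval of the ratio of smi-1, from 0.491 to 1.24, includes 1 and lies wholly below the factor of 1.26. Intervals wholly below that factor were found for 16.7% of genes of 5 to 100 FPKM. None of the 4 exon junction and cap-binding genes passed the size rule, with mag-1, the partner of Y14, at 30.4 in N2 and 40.8 in the mutant and the cap-binding gene ncbp-2 at 56.4 in N2 and 40.5 in the mutant. The same held for the 4 measured genes listed by name as trans-splicing genes, sna-1, sna-2, sut-1 and sut-2, a role that was not checked for each. They ran from sna-2 (8.33 in the mutant and 6.22 in N2) to sut-1 (3.66 and 6.55). The counting interval of the ratio of sut-1, from 0.313 to 1.004, includes 1 and lies wholly below 1.26.

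Regulators of alternative splicing and hnRNP genes had a higher median than the members, a difference with no test. Of 22 in the table, 20 were measured, and their median centred difference was 0.28. Of the 20, 3 were higher and 3 were lower by the size rule, against 13.6% and 12.2% of measured genes. The polypyrimidine tract binding protein gene ptb-1, at 1.30 FPKM in N2 and 5.54 in the mutant, was called in the authors' deposited table (q = 0.00250). It lies 4 protein-coding genes from rsp-7 on the same strand. The muscle splicing factor gene sup-12 stood at 4.81 in N2 and 12.3 in the mutant, and asd-1 was at 1.62 in the mutant and listed at 0 in N2. The 3 lower ones, etr-1 (12.7 FPKM in N2), hrpl-1 (4.23) and hrpa-2 (2.73), were all listed at 0 in the mutant, and the further pair lists etr-1 and hrpl-1 at 0 in both libraries. The Lsm ring genes, relatives of the Sm genes, had a median centred difference of 0.03 over 7 measured genes, from lsm-3 (34.1 in the mutant and 22.1 in N2) to lsm-1 itself.

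Markers of some tissues did not stand level between the libraries, and in whole larvae fewer cells of a type cannot be told apart from less RNA per cell. Centred differences were negative for all 15 germ line markers, with a summed level of 50.1 FPKM in the mutant and 79.7 in N2 and glh-3 listed at 0 in the mutant alone. They were positive for all 6 measured body wall muscle markers, with a sum of 767 in the mutant and 563 in N2, while unc-15, lev-11, unc-22 and unc-89 were listed at 0 in both. Sums, which are not centred, were 374 in the mutant and 296 in N2 for 10 epidermal markers, 7 of them positive and ajm-1 listed at 0 in N2. For 10 intestinal markers the sums were 349 and 311, with 4 of 9 measured positive and ges-1 at 0 in both. Over markers above 0 in both libraries the median centred difference was 0.07 for epidermis and -0.05 for intestine, beside 0.09 for the members. It was -0.75 for germ line, 0.39 for body wall muscle and 0.25 for neurons. For neurons 8 of 9 measured markers were positive, with sums of 163 and 98.8, rab-3 and sbt-1 at 0 in N2 and unc-18 at 0 in both. The further pair lists rab-3 and sbt-1 at 0 in both libraries, and over the 7 neuron markers above 0 in both the sums were 139 in the mutant and 98.8 in N2. The authors' deposited table called 4 epidermal markers, 1 each of germ line, body wall muscle and neurons, and 0 of the intestine. The calls of the neuron marker sbt-1 and of the epidermal marker ajm-1 rest on a 0 in N2. Over all genes with a usable test the called share was 3.76%. The part of tissue make-up in the values of rnp-8, ptb-1, sup-12 and the splicing genes as a group was not tested.

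**Figure D4:**
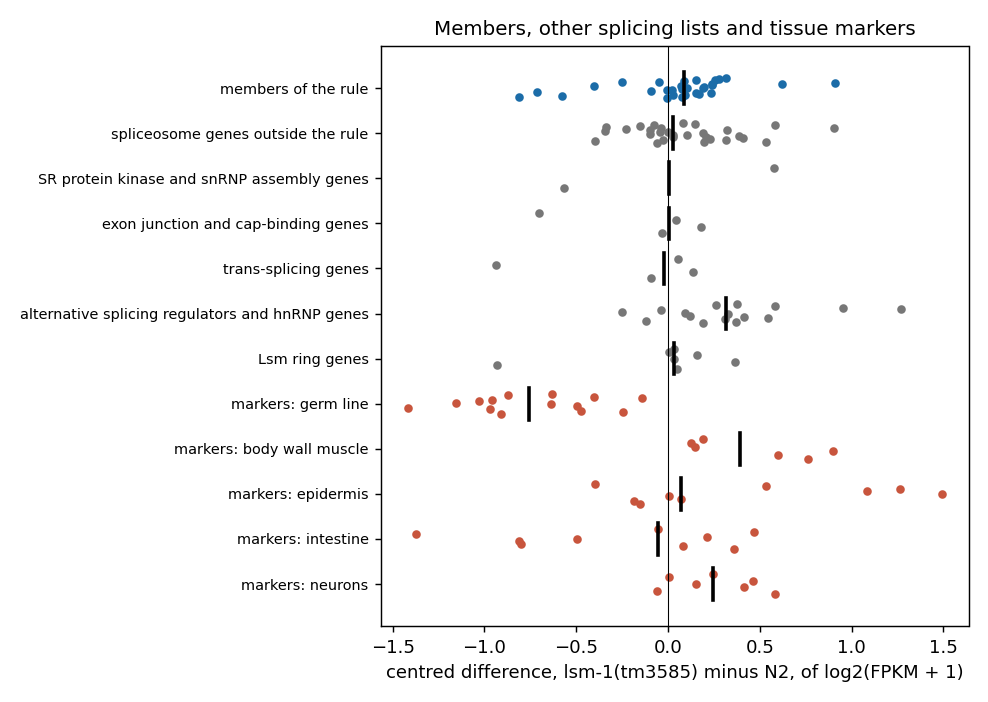
Centred difference in log2(FPKM + 1), lsm-1(tm3585) minus N2, of measured genes above 0 in both libraries, with 1 point per gene and a black bar at the median of each list; blue marks the members, grey other splicing lists and red tissue markers. The members' median of 0.09 lies near those of most splicing lists, the median of alternative splicing regulators is 0.32 and that of germ line markers is -0.75.

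Gene structure and position were read from the current annotation, which matched all 36 members. Members lie on every autosome, with 7 on chromosome I, 8 on II, 11 on III, 6 on IV and 4 on V, and 0 on X, which holds 14.6% of measured protein-coding genes. Median transcript length was 1081 nt, from 348 nt for snr-5 to 7407 nt for prp-8, against 1226 nt for measured protein-coding genes. Exons of 12 members overlap another gene, 9 of them on the other strand. No label states that strand was used in counting, so fragments of such pairs cannot be told apart. The overlaps of rsp-7 with D2089.8 and of rsp-2 with W02B12.1 cover 73 and 5 bases, and prp-8 shares none.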

How the data were processed

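Total RNA of larvae was depleted of ribosomal RNA and made into libraries with an Illumina TruSeq kit, per the labels' protocols. TopHat, Cufflinks and Cuffdiff made the values, per the submitters' processing notes; the sources used here give no version, build or annotation. The authors deposited 2 pairs of FPKM columns, a log2 fold change, a test statistic of their own scale, and a p-value and q-value per gene. The FPKM pair beside the authors' test was used, and the further pair was an alternative. Both pairs come from the same 2 libraries, so a value repeated in the further pair is no replication. That authors' test compares 2 libraries.

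Differences used a pseudocount of 1 and a minimum FPKM of 1 in either library. No p-value was computed. Relative depth came from 5978 genes of low FPKM, of which 49.3% had mutant and N2 values whose ratio, divided by 0.822, lay within 0.5% of a quotient of whole numbers up to 10, against a median of 12.9% over trial values. The total came from FPKM times length, less a fixed number of nt, in 5850 genes with 1 transcript. Of their values that came to only a few fragments, 40.0% lay within 3% of a whole number at the best trial setting. The median over all trial settings was 8.41%. The subtracted 203 nt and the mutant total of 10.7 M are means over the settings close to the best. Fragment numbers are therefore estimates, and less certain for short genes and genes with several transcripts. Intervals of ratios are Clopper-Pearson (95%), and the steps were tested on simulated data.

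Members are fixed by symbol. Members and lists were chosen with earlier results of these data known. Of 88 entries in 6 splicing lists, 10 had no match, and 5 marker lists were used. All members may be named. Of the other lists, genes past the size rule or called by the authors and the ends of each list are named, and eftu-2, snrp-200, smn-1, smi-1 and mag-1 were chosen after their values were seen. Annotation was Ensembl release 115 (WBcel235) with RefSeq names, possibly another build than the authors', so no coordinates are given. Python 3.11.15, numpy 2.4.6, pandas 2.3.3, scipy 1.17.1 and matplotlib 3.10.9 were used.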

Additional observations from a re-analysis of the deposited data

How the results depend on the processing

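With the median of measured genes not subtracted, the members' median was 0.36, and those of the classes were 0.39 (snr), 0.67 (rsp), 0.29 (prp), 0.36 (rnp) and 0.32 (uaf, sfa and sap). Without a filter the median subtracted is 0, and the values were 0.33 for the members and 0.39, 0.67, 0.26, 0.36 and 0.27 for the classes. Among genes with an FPKM of 5 or more the snr median was 0.046 and the rsp median 0.33, and those of the prp genes (-0.055) and of uaf, sfa and sap (-0.027) turned below 0. With centring on genes of 5 to 100 FPKM both turned as well, to -0.045 and -0.017. Where every FPKM column of a gene had to exceed 0, the rsp median was 0.24, and 1 member, rsp-7, passed the size rule upward. With a pseudocount of 0.1, 1 member, rnp-8, passed it downward. Apart from these values, medians stayed within 0.1 of the reported value and counts within 1.5-fold, also with the further FPKM pair, with FPKM sums made equal, with centring on genes of 5 to 100 FPKM and without members that overlap another gene, the last 2 added after the data were seen. No member past the size rule changed direction. No paired analysis was possible because each genotype has 1 library, and no library can be left out. Few fragments limit rnp-8, rnp-1, snr-6 and snr-3.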

Other observations

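Tests marked as failed were more common among splicing genes than among all measured genes. The part that expression level has in this was not tested. The mark stands in the authors' deposited table for 7 of the 34 measured members, or 20.6% (rsp-3, rsp-8, prp-3, prp-4, prp-6, prp-19 and rnp-8), and so do 5 of the 31 measured spliceosome genes outside the rule, against 4.36% of measured genes. For 6 of these 7 members the FPKM is above 0 in both libraries, yet the deposited log2 fold change is 0.

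Members listed at 0 in N2 are also listed as unchanged. The genes rsp-1, uaf-2 and rnp-5 have a usable test in the authors' deposited table, with a log2 fold change of 0 and p = 1, beside FPKM values of 39.4, 24.8 and 5.36 in the mutant and 0 in N2. Over all genes 319 of 3209 with a usable test and a 0 in 1 library are listed in this way. The share of measured members listed at 0 in N2 alone was 11.8%, and that of all measured genes was 8.16%. No member was listed at 0 in the mutant alone, where the share of all measured genes was 9.05%.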
